A study of Mus musculus with 28 samples.

Results

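Meiocyte-like cells made in culture from mouse embryonic stem cells with long telomeres (LT-1dMeioLC) were compared with primordial germ cells sorted from E10.5 embryos (E10.5PGC), by sequencing of total RNA. All cells were of strain C57BL6. The LT stem cells were wild type. They were grown for 2 days as epiblast-like cells with bFGF and activin A, then induced for 4 days as PGC-like cells with BMP4 at 500 ng/ml, SCF at 100 ng/ml, EGF at 50 ng/ml and LIF at 1000 IU. The resulting cells were mixed with somatic cells of female E12.5 gonads that carried Actin-GFP and kept for 1 day with 3 µM retinoic acid, vitamin C at 50 µg/ml and the ROCK inhibitor Y27632 at 10 µM, after which GFP-negative cells were sorted. E10.5PGC were taken from the gonadal region of E10.5 embryos and sorted with antibodies to CD61, the product of Itgb3, and to the SSEA1 sugar, with no culture. Both groups had 2 libraries. For named genes another group is given beside them, E10.5 PGCs after the same 1-day culture with gonadal cells (PGC-1dMeioLC, 2 libraries). The genes compared were those with at least 1 TPM, a share of transcripts scaled by gene length, in at least 2 of the 4 LT-1dMeioLC and E10.5PGC libraries, 16588 of the 53564 symbols in the table. The spread behind each SE and p-value was pooled over 16 libraries of 8 groups. Besides the groups named above, these were embryoid bodies of the LT line and embryoid bodies and meiocyte-like cells of the ST and RT lines. The labels do not say whether the 2 libraries of a group came from separate cultures or litters. The p-values therefore measure only the spread between libraries of the same group, which may be technical.

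Primordial germ cells (PGCs) are the embryonic precursors of eggs and sperm. They arise from the epiblast under BMP signals through the transcription factors Prdm1, Prdm14 and Tfap2c, migrate to the gonadal ridge, erase most of their DNA methylation and keep much of the pluripotency network active. In the ovary, retinoic acid and BMP then lead germ cells into meiosis, with Stra8 as the classical retinoic acid target, while the early PGC genes are switched off. The comparison sets cells that had passed through a culture made to start meiosis beside PGCs taken before that step.

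In the comparison of LT-1dMeioLC with E10.5PGC, 11095 of the 16588 genes (66.9%) had a Benjamini-Hochberg adjusted p under 0.05 in limma's moderated test on log2(TPM + 1), which is the threshold for every call below. Expression was higher in LT-1dMeioLC for 7376 genes (44.5%) and lower for 3719 (22.4%). A change of at least 2-fold, on the scale of TPM + 1, was seen for 4062 genes higher (24.5%) and 1285 lower (7.75%). Over all 21935 genes tested in the 16 libraries of the fit 54.4% were called. Of the calls 66.5% were higher. Quantile normalization moved the median log2 difference of all genes tested from 0.18 to 0.00. It left 5092 higher and 5269 lower (49.1% higher), with 2426 genes at least 2-fold higher. The split therefore rests on the scaling, and so in part does the count of 2-fold differences. Against PGC-1dMeioLC fewer genes were called, 25.2% of the same 16588. With calls this common, a list of genes is read below against 44.5% higher and 22.4% lower and against the median log2 difference of 0.28 over the genes compared. A difference on the log2 scale is always LT-1dMeioLC minus the other group, on log2(TPM + 1), with limma's standard error (SE). Rose and fell mean higher and lower in LT-1dMeioLC than in E10.5PGC, which are not the cells LT-1dMeioLC were made from. Origin, culture and sorting all differ between these groups, so their parts cannot be told apart.

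Membership was a matter of low values for many genes. At least 1 TPM in all 4 libraries was reached by 12117 genes, of which 63.8% were called. A further 2519 genes reached it in both LT-1dMeioLC libraries and neither E10.5PGC library, 449 the other way round, and 1503 in other patterns. Between 1 and 1.1 TPM in their second-highest library stood 343 genes just inside the rule, such as Napb with 1.24 and 0.97 TPM in LT-1dMeioLC and 1.00 and 0.643 TPM in E10.5PGC. Just outside stood 363 genes at 0.9 TPM or above, such as Hist2h4 with 1.68 and 0.999 TPM against 0.409 and 0.632 TPM.

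**Figure D1:**
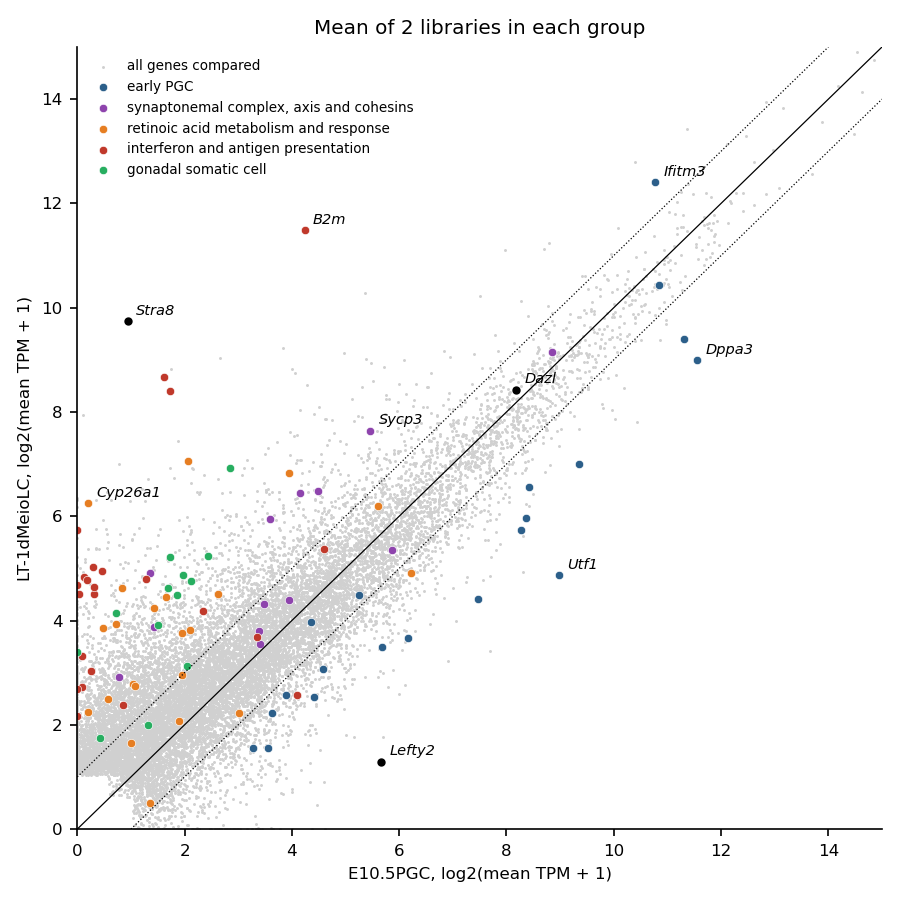
Mean expression of the 2 libraries of each group as log2(mean TPM + 1), E10.5PGC on the x axis and LT-1dMeioLC on the y axis, 1 point for each of the 16588 genes compared. The solid line marks equal values and the dotted lines a 2-fold difference; the coloured points are members of 5 gene lists. Stra8, B2m and Cyp26a1 lie far above the lines, Lefty2, Utf1 and Dppa3 below them, and Dazl close to equality.

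Libraries of a group were close to each other, with Pearson's r across genes of 0.981 for LT-1dMeioLC and 0.986 for E10.5PGC against 0.865 between the group means. Nuclear protein-coding genes held 60.5% to 61.2% of TPM in all 4 libraries. Mitochondrial genes held 11% and 10.7% in LT-1dMeioLC and 9.75% and 9.79% in E10.5PGC. The rRNA-like locus of chromosome 17 held 1.92% and 1.90% against 0.912% and 1.00%.

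Markers of other cell types differed between the groups and are given first because they bear on many lists below. All 13 measured gonadal somatic genes were higher in LT-1dMeioLC, and their 14-gene list summed to 344 and 349 TPM against 30.6 and 32.5 TPM in E10.5PGC. Wt1, the transcription factor of the gonadal and kidney mesoderm, had 38.8 and 34.2 TPM against 4.26 and 4.52 TPM. Nr2f2, a nuclear receptor of interstitial cells, had 121 and 121 TPM against 6.05 and 6.35 TPM (log2 difference 4.08, SE 0.10, adjusted p = 2.6e-10). Foxl2, the granulosa cell factor, had 9.04 and 9.90 TPM and was listed at 0 in both E10.5PGC libraries. Here and below, a listed 0 may be a failed estimate and not a true absence, since no counts were used that could tell. The values do not overlap between the groups for any of these genes. The same held for most of the genes compared (14171), so lack of overlap alone does not set the somatic genes apart. In PGC-1dMeioLC, sorted the same way after the same culture, the list summed to 382 and 372 TPM. In day-1 embryoid bodies of the same LT stem cells, which had met no gonadal cells, it summed to 22.9 and 23.4 TPM. Of that embryoid body sum Fst alone had a mean of 13.9 TPM (SD 1.29, n = 2).

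Fibroblast and stroma genes were likewise all higher, 13 of 13 measured, with sums of 494 and 478 TPM against 17.5 and 19.6 TPM and 587 and 581 TPM in PGC-1dMeioLC. Col6a1, a collagen chain, led them with 41.9 and 38.9 TPM against 0.304 and 0.329 TPM (log2 difference 4.97, SE 0.07). Macrophage and leukocyte genes were higher for 8 of 10, with 1 lower, Csf1r, and sums of 332 and 324 TPM against 37.3 and 40.1 TPM. Their defining lysozyme gene Lyz2 had 76.2 and 79.5 TPM against 1.01 and 0.939 TPM, and 235 and 227 TPM in PGC-1dMeioLC. These sums show RNA of non-germ-cell genes in the sorted GFP-negative cells of both culture groups. Whether it came from other cells or from the germ cells themselves was not tested. In bulk libraries such as these, fewer cells of a type and less RNA per cell cannot be told apart.

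Blood genes were present in E10.5PGC as well. The erythroid list summed to 3130 and 3210 TPM there, to 1930 and 2020 TPM in LT-1dMeioLC, to 978 and 1030 TPM in PGC-1dMeioLC and to 4.04 and 4.78 TPM in the LT embryoid bodies. Of its 10 measured genes 4 were higher and 4 lower, and they divided by developmental stage of the globin. The embryonic globins fell, Hbb-bh1 from 199 and 211 TPM to 11.3 and 7.97 TPM (log2 difference -4.30, SE 0.36, adjusted p = 2.7e-06) and Hba-x from 1380 and 1410 TPM to 214 and 231 TPM. The adult globin Hbb-bs rose from 34.7 and 34.6 TPM to 81.8 and 85.3 TPM, although this call was lost with a pseudocount of 0.1 (adjusted p = 0.12). Globin genes are near copies of each other, so reads could be shared among them. Megakaryocyte genes were lower for 3 of 6 and higher for 1, Itga2b, whose sign turned under quantile normalization. Ppbp, a platelet chemokine, fell from 22.4 and 16 TPM to 0.828 and 0.902 TPM. Mesonephros and epithelium genes were higher for 7 of 8, with sums of 157 and 161 TPM against 43.6 and 43.0 TPM, and endoderm genes for 5 of 6, with 96.8 and 93.6 TPM against 24.9 and 22.7 TPM. Neural genes (2 higher and 1 lower of 4) and primitive streak genes (3 higher and 1 lower of 4) each summed to under 20 TPM in all 4 libraries. Endothelial genes were called higher for 2 and lower for 3 of 7 and summed to 19.3 TPM at most in the 4 libraries.

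**Figure D2:**
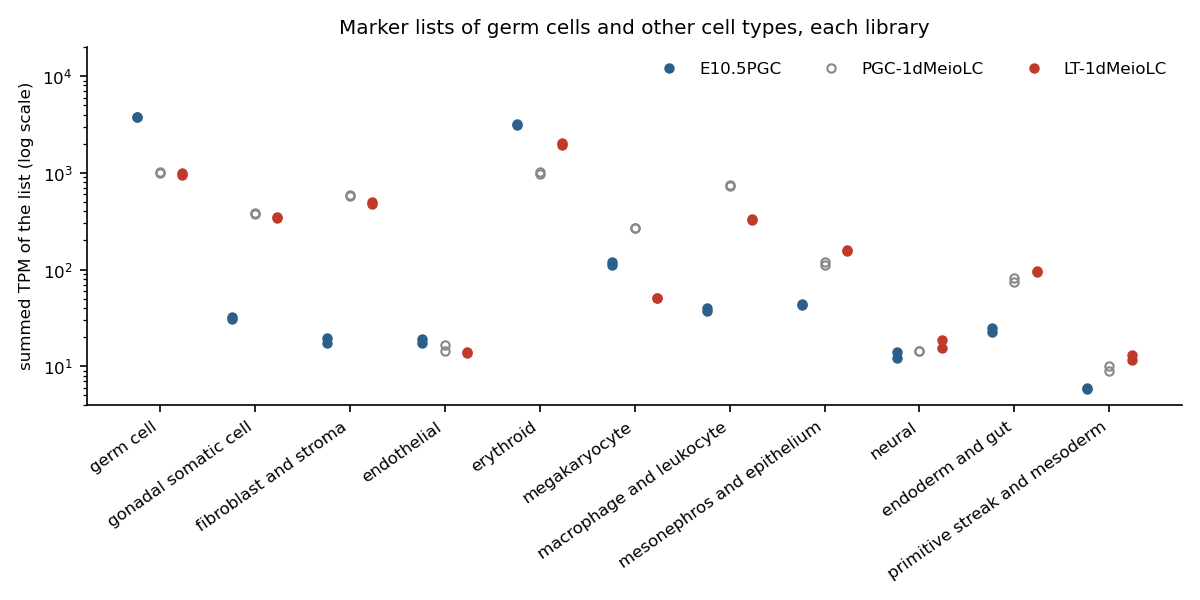
Summed TPM of 11 marker lists in each library of E10.5PGC, PGC-1dMeioLC and LT-1dMeioLC, on a log scale, 1 point for each library. Gonadal somatic, stromal and macrophage lists sit well above E10.5PGC in both culture groups, and the germ cell list sits at 3750 and 3760 TPM in E10.5PGC against 987 and 947 TPM in LT-1dMeioLC.

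Of the genes of meiotic entry, Stra8 changed most. Stra8, the gatekeeper of the meiotic programme (mm10 chromosome 6, 34920163 to 34939344, plus strand), had 845 and 858 TPM in LT-1dMeioLC and 0.813 and 1.03 TPM in E10.5PGC. All LT-1dMeioLC values lie far above all E10.5PGC values, with a log2 difference of 8.80 (SE 0.17, adjusted p = 8.2e-11). PGC-1dMeioLC reached 747 and 744 TPM, and its difference from LT-1dMeioLC did not pass the test (log2 0.19, adjusted p = 0.49). Meioc, which stabilises the meiotic programme with the RNA helicase Ythdc2, rose from 0.289 and 0.268 TPM to 19.3 and 18.2 TPM (log2 difference 3.95, SE 0.12). Rec8, the meiotic kleisin of cohesin and another retinoic acid responsive gene, rose from 1.82 and 1.54 TPM to 13 and 14.4 TPM (log2 difference 2.46, SE 0.12, adjusted p = 4.8e-08). Zglp1, a factor of the oogenic fate downstream of BMP, went the other way, from 65.1 and 62.7 TPM to 28.0 and 26.0 TPM (log2 difference -1.21, SE 0.26). Of the 11 measured genes of the meiotic entry list 6 were higher and 3 lower, with a median log2 difference of 0.25 that became -0.16 under quantile normalization, with 4 higher and 4 lower. Those that did not pass were Gata2 and Cdk2, at 3.96 and 4.59 TPM against 4.10 and 4.92 TPM for Gata2.

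The list of synaptonemal complex, chromosome axis and cohesin genes moved more evenly. Of 13 measured members 11 were higher and none lower, and the median log2 difference was 2.01, against 0.28 over the genes compared. Sycp3, the axis protein that marks leptotene chromosomes, had 196 and 201 TPM against 41.6 and 44.7 TPM in E10.5PGC (log2 difference 2.18, SE 0.20, adjusted p = 4.4e-06). It was thus measurable in embryonic PGCs that had not been cultured. Sycp1, the transverse filament of the complex, rose from 1.5 and 1.62 TPM to 29.8 and 28.0 TPM (log2 difference 3.55, SE 0.13). Smc1b, the meiotic SMC subunit of cohesin, rose from 11.2 and 11.1 TPM to 59.4 and 61.8 TPM, and Tex12, a central element protein, from 17.6 and 15.8 TPM to 88.9 and 83.7 TPM. The 2 members that did not pass were Hormad2, with 10.8 and 10.6 TPM against 10.1 and 9.04 TPM, and Syce1, with 38.4 and 41.7 TPM against 60.1 and 54.7 TPM. The member below the minimum, Rad21l, was listed at 0 in E10.5PGC and at 0.66 and 0.982 TPM in LT-1dMeioLC.

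Genes of recombination and telomere tethering were called higher for 12 and lower for 3 of 20 measured, with a median log2 difference of 1.00. Ccnb1ip1 (HEI10), which acts in crossover designation, rose from 24.1 and 23.3 TPM to 229 and 235 TPM (log2 difference 3.24, SE 0.12, adjusted p = 7.3e-09). It also stood above PGC-1dMeioLC, which had 81.5 and 74.0 TPM (log2 difference 1.57, adjusted p = 2e-05). Prdm9, the methyltransferase that places recombination hotspots, rose from 0.835 and 0.335 TPM to 10.7 and 11.7 TPM, and Meiob, a single-strand DNA binding factor, from 0.704 and 0.726 TPM to a mean of 13.1 TPM (SD 0.889, n = 2). Dmc1, the meiotic recombinase, had 12.2 and 12.6 TPM against 2.95 and 3.81 TPM. Spo11, the enzyme that makes the DNA breaks, stayed below the minimum in all 4 libraries, at 0.597 and 0.914 TPM against 0.985 and 0.630 TPM. Mnd1 and Psmc3ip were among those that fell. Mnd1, a partner of the recombinases, had 49.9 and 42.4 TPM against 82.8 and 82.6 TPM. Of the proteins that tie meiotic telomeres to the nuclear envelope, Majin rose from 0.731 and 0 TPM to 4.92 and 5.36 TPM (log2 difference 2.22, adjusted p = 0.0011). Terb2, of the same complex, had 6.43 and 5.85 TPM against 3.84 and 3.21 TPM (adjusted p = 0.047), a call lost without any 1 of the 4 libraries (adjusted p = 0.08 to 0.19) and with the replicate block (adjusted p = 0.061). Sun1 had 9.01 and 9.74 TPM against 9.89 and 9.93 TPM, which did not pass. Under quantile normalization the list gave 10 higher and 6 lower.

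**Figure D3:**
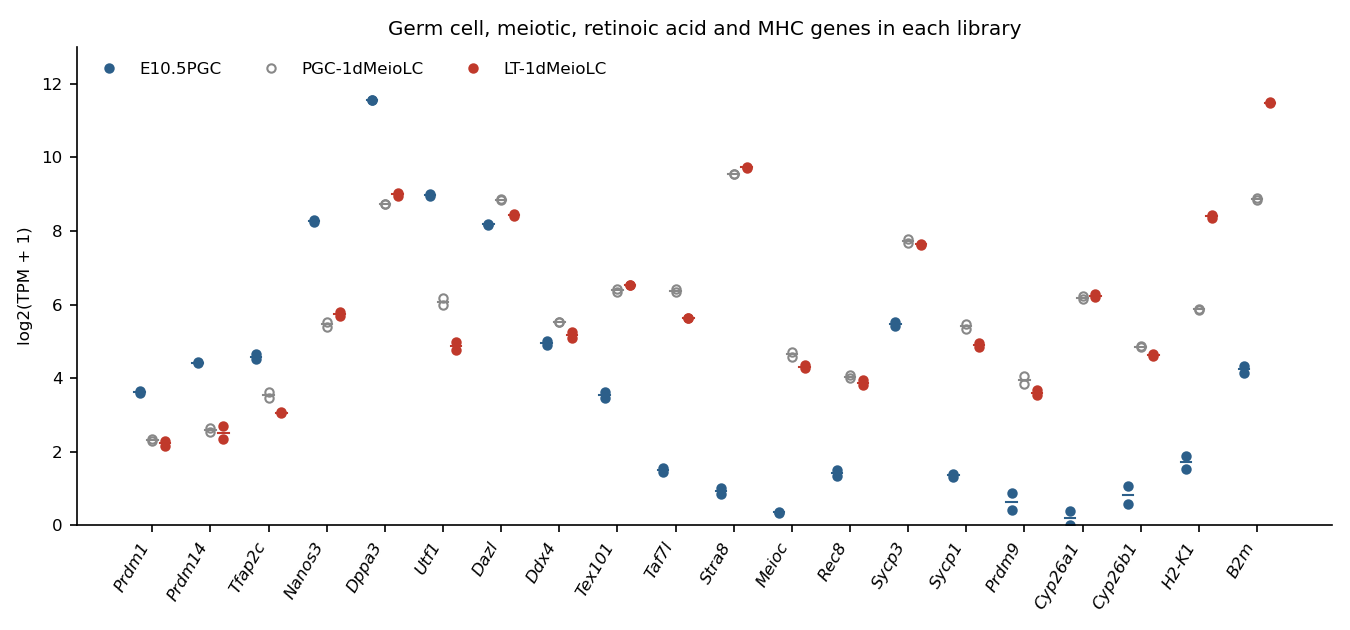
Expression of 20 genes in each library as log2(TPM + 1), with E10.5PGC in blue, PGC-1dMeioLC as open grey circles and LT-1dMeioLC in red; short lines are group means of 2 libraries. Early PGC genes sit highest in E10.5PGC, meiotic and retinoic acid genes sit high in both culture groups, and H2-K1 and B2m sit higher in LT-1dMeioLC than in either other group.

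Promoters were read from RefSeq (GRCm38.p6), 250 bases before to 50 bases after the start, for 33 of the 40 genes in the meiotic entry, synaptonemal and late germ cell lists, taking for each gene the start nearest to its annotated 5′ end. The hexamer AGGTCA, which retinoic acid receptors bind, was found on either strand in 16.3% of all 32851 promoters of the table and in 5 of these 33. The E-box CACGTG, bound by bHLH factors, was found in 7.15% of all promoters and in 12 of the 33, and the E2F6-type motif GGCGGGAA in 2.19% and in 4. The sequences of 5 genes that rose are shown because they hold these motifs, which are in capitals. Genes that did not rise held them too. CACGTG was also in the promoters of Brdt, Ddx4 and Mael, which did not pass, and of Zglp1, which fell. Whether the motifs go with the direction of change was not tested. A match describes letters in a window and is no evidence of binding. The Stra8 promoter lies at chr6:34920698-34920997 on the plus strand, Sycp3 at chr10:88459337-88459636 (plus), Hormad1 at chr3:95559427-95559726 (plus), Tex12 at chr9:50561219-50561518 (minus) and Taf7l at chrX:134476441-134476740 (minus).
Stra8: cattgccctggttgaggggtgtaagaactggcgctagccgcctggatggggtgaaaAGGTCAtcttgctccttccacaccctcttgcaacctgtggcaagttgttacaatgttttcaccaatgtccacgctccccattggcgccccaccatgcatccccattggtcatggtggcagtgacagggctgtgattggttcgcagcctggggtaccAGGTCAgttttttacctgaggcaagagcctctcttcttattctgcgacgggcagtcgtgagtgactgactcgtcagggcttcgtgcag
Sycp3: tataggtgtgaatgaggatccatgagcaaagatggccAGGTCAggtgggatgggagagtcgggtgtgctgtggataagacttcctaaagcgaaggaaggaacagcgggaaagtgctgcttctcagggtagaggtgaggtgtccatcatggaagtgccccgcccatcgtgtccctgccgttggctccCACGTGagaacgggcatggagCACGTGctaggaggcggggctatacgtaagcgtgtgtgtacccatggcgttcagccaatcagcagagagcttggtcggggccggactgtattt
Hormad1: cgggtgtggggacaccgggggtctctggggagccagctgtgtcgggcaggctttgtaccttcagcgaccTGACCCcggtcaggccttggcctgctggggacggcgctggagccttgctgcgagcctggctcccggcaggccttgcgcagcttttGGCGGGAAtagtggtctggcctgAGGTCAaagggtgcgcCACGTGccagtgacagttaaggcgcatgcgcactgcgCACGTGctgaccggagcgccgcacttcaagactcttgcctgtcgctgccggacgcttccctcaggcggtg
Tex12: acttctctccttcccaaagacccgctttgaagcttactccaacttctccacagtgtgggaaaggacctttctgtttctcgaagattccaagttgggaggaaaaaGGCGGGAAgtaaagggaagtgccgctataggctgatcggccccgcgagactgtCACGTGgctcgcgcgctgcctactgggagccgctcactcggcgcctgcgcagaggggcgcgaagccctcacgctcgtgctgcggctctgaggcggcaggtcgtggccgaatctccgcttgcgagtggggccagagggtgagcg
Taf7l: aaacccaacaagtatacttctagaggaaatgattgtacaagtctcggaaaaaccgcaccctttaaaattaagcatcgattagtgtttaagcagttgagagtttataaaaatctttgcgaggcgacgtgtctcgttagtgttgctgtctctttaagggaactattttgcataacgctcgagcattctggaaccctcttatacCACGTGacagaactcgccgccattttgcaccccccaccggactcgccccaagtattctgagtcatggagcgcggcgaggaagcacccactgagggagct

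The RefSeq start of Stra8 lies 785 bases downstream of the GENCODE start given above, so its window falls inside the gene as annotated there. The RefSeq start of Meioc lies 1869 bases from its GENCODE start, and those of Sycp3 and Tex12 lie 18 and 57 bases away. The largest distances were 23009 bases for 4930447C04Rik (Six6os1), which is counted among the promoters with CACGTG, and 4625 bases for Tex101. In the Stra8 promoter AGGTCA occurred 2 times, 194 and 38 bases upstream of the start, and neither CACGTG nor GGCGGGAA was found. Sycp3 held CACGTG 2 times, 64 and 43 bases upstream, and AGGTCA 213 bases upstream. Hormad1, the axis protein that recruits the recombination machinery and rose from 21.4 and 21.3 TPM to 91.0 and 87.0 TPM, held CACGTG 57 and 20 bases upstream, GGCGGGAA 96 bases upstream, AGGTCA 73 bases upstream and GGGTCA 181 bases upstream on the minus strand. Tex12 held CACGTG at 93 and GGCGGGAA at 146 bases upstream. Taf7l, a germ cell relative of the general transcription factor subunit TAF7, held CACGTG 49 bases upstream. The promoters of Meioc, Rec8, Smc1b and Dazl held none of the 5 motifs searched, which were these 3, GGGTCA and AGTTCA, all on both strands. GGGTCA was in 13.7% of all promoters and in 5 of the 33, and AGTTCA in 14% and in none of the 33.

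Retinoic acid genes were higher for 18 of 22 measured and lower for 3, with a median log2 difference of 1.85. Cyp26a1, an enzyme that destroys retinoic acid and is induced by its receptors, changed most and had 77.4 and 72.4 TPM against 0.301 and 0 TPM in E10.5PGC (log2 difference 6.06, SE 0.23, adjusted p = 8e-09) and 73.8 and 69.4 TPM in PGC-1dMeioLC. Cyp26b1, of the same enzyme family, rose from 0.498 and 1.08 TPM to 24.4 and 23.1 TPM. Dhrs3, the reductase that turns retinal back into retinol, rose from 3.28 and 3.10 TPM to 133 and 133 TPM (log2 difference 5.00, SE 0.16). Among receptors, Rarb, itself a retinoic acid target, rose from 0.582 and 0.704 TPM to 13.8 and 14.8 TPM. Rara had 2.80 and 3.66 TPM against 3.14 and 2.27 TPM and did not pass. Rarg fell from 1.41 and 1.69 TPM to 0.374 and 0.459 TPM. Aldh1a2, the retinal dehydrogenase of the mesonephros and gonad, rose from 4.88 and 5.37 TPM to 23.3 and 20.6 TPM, and the carrier Crabp1 fell from 73.3 and 73.5 TPM to 28.1 and 29.7 TPM. Retinoic acid was added only to the culture groups, and the gonadal somatic and stromal sums given above moved with these genes. Their part was not tested.

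Hox genes, which pattern the body axis and respond to retinoic acid at the 3′ ends of their clusters, were called higher for 27 of 28 measured Hox and Cdx genes and lower for none, with a median log2 difference of 1.80. Hoxd8 rose from 2.82 and 3.15 TPM to 19.8 and 23.4 TPM, and Hoxa5 from 1.63 and 1.54 TPM to 11.1 and 15.4 TPM. Their levels were low, since no listed member exceeded the 23.4 TPM of Hoxd8 in LT-1dMeioLC. The member that did not pass was Hoxa10, at 2.41 and 2.19 TPM against 1.14 and 2.02 TPM. Cdx1, another retinoic acid target, rose from 1.07 and 1.41 TPM to 7.91 and 8.56 TPM. Somatic marker sums moved with these genes as well.

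Early PGC genes fell almost throughout, 19 of 20 measured, with a median log2 difference of -1.91. The count and median include Itgb3, whose product was used to sort E10.5PGC, so they are not free of the sort. Dppa3 (Stella), the marker of specified PGCs (mm10 chromosome 6, 122626410 to 122630272), fell from 3010 and 3010 TPM in E10.5PGC to 524 and 495 TPM (log2 difference -2.56, SE 0.07, adjusted p = 8.1e-10). Nanos3, an RNA-binding protein needed for PGC survival, fell from 300 and 312 TPM to 50.9 and 54.3 TPM (log2 difference -2.52, SE 0.17). In both cases the groups are far apart, and PGC-1dMeioLC lay close to LT-1dMeioLC, with 423 and 425 TPM of Dppa3 and 40.8 and 45.4 TPM of Nanos3.

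The specification factors fell less steeply on the log2 scale. Prdm1 had 3.91 and 3.45 TPM against 11.1 and 11.6 TPM (log2 difference -1.40), Prdm14 5.48 and 4.07 TPM against 20.2 and 20.5 TPM (-1.90) and Tfap2c 7.44 and 7.26 TPM against 21.8 and 24.1 TPM (-1.52). Utf1, a chromatin protein of pluripotent and germ cells, fell most, from 515 and 495 TPM to 30.8 and 26.0 TPM (log2 difference -4.11, SE 0.10). Tcl1, a cofactor of AKT kinase, fell from 187 and 168 TPM to 21.2 and 19.2 TPM. Kit, the receptor of stem cell factor, changed little, from 19.3 and 19.9 TPM to 15.2 and 14.1 TPM (log2 difference -0.40, adjusted p = 0.005). Cxcr4, the receptor that guides migrating PGCs, fell from 51.7 and 48.6 TPM to 8.98 and 11.7 TPM. Itgb3 fell from 10.4 and 11.2 TPM to 2.58 and 1.32 TPM, but its product was used to sort E10.5PGC, so this is no finding. Ifitm3 (fragilis) was the exception of the list, at 5370 and 5450 TPM against 1750 and 1740 TPM (log2 difference 1.63, SE 0.03). It is also an interferon-induced gene.

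Pluripotency genes followed, with 13 of 18 lower and 3 higher and a median log2 difference of -1.26. Dppa4, a partner of Dppa2 in priming developmental promoters, fell from 321 and 311 TPM to 48.4 and 48.2 TPM (log2 difference -2.68), Zfp42 (Rex1) from 111 and 114 TPM to 20.4 and 20.8 TPM and Gdf3, a Nodal-related ligand, from 48.7 and 48.2 TPM to 9.99 and 9.81 TPM. Sox2 fell from 43.2 and 43.2 TPM to 14.3 and 15.4 TPM and Nanog from 50.4 and 54.0 TPM to 29.6 and 26.3 TPM. Pou5f1 (Oct4) had 2.13 and 1.45 TPM against 8.65 and 8.61 TPM, low for a gene that marks PGCs. It has pseudogene copies that could share its reads, so its level is uncertain. The 3 genes that rose were Nr0b1 (5.97 and 5.92 TPM to 24 and 24.9 TPM), Fgf4 and Tbx3. Klf4 and Tfcp2l1 did not pass, with 5.71 and 5.52 TPM against 5.63 and 5.94 TPM for Tfcp2l1.

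Germ cell genes that come on at gonad colonisation changed in both directions. Of the 16 measured late germ cell genes 8 were higher and 4 lower, shares close to those over all genes compared. The list summed to 6820 and 7040 TPM against 13800 and 14000 TPM in E10.5PGC. That sum follows the most abundant members, and Dazl and Ddx4, given next, make up little of it. Dazl, an RNA-binding protein that licenses PGCs to become gametes, had 350 and 339 TPM against 291 and 286 TPM (log2 difference 0.25, SE 0.09, adjusted p = 0.031). That call rested on a small difference and did not hold without any single one of the 4 libraries (adjusted p = 0.075 to 0.12). Ddx4 (Vasa), the germ cell RNA helicase, had 37.4 and 32.9 TPM against 31.3 and 28.6 TPM and did not pass (log2 difference 0.22, SE 0.19, adjusted p = 0.36). The summed 8-gene germ cell marker list fell from 3750 and 3760 TPM to 987 and 947 TPM, and Dppa3 makes up most of that sum in E10.5PGC. Among those that rose, Taf7l went from 1.96 and 1.74 TPM to 48.5 and 48.6 TPM (log2 difference 4.12, SE 0.13, adjusted p = 1.7e-09), Tex101, a germ cell surface protein, from 10.1 and 11.4 TPM to 90.8 and 91.4 TPM and Rhox13, an X-linked homeobox gene, from 6.84 and 5.17 TPM to 36.5 and 34.2 TPM. Tex19.1, Dppa5a, Pecam1 and Zglp1 fell.

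Genes of the piRNA pathway, which silences transposons through small RNAs, were mostly lower, 7 of 12 measured, with 1 higher and a median log2 difference of -0.47. The tudor protein gene Tdrd5 fell from 11.7 and 10.2 TPM to 1.21 and 1.5 TPM (log2 difference -2.34, SE 0.14) and Tdrd12 from 30.3 and 26.4 TPM to 9.13 and 8.26 TPM. Fkbp6, a cochaperone of the pathway, fell from 233 and 227 TPM to 101 and 108 TPM. The gene that rose was Gtsf1, a cofactor of PIWI cleavage, from 16.9 and 17.6 TPM to 110 and 114 TPM (log2 difference 2.63, SE 0.27, adjusted p = 1.2e-05). Piwil2, the PIWI protein of fetal germ cells, had 7.78 and 9.86 TPM against 12.4 and 11.5 TPM and did not pass (adjusted p = 0.066).

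Genes that regulate DNA methylation changed in both directions, with 9 of 18 higher and 6 lower. Their median log2 difference of 0.31 was close to that over all genes compared. The de novo enzymes Dnmt3a and Dnmt3b rose, Dnmt3a from 3.22 and 3.61 TPM to a mean of 10.6 TPM (SD 0.135, n = 2) and Dnmt3b from 1.46 and 1.73 TPM to 6.11 and 6.00 TPM. Uhrf1, which brings the maintenance enzyme to replicated DNA, rose from 4.5 and 4.59 TPM to 12.6 and 15.9 TPM (log2 difference 1.45, SE 0.15). Dnmt1 itself fell from 29.7 and 31.1 TPM to 20 and 21.1 TPM. Of the dioxygenases that oxidise methylcytosine, Tet2 and Tet3 rose. Tet1, needed to activate meiotic genes in female PGCs, fell from 8.92 and 8.74 TPM to 3.16 and 3.12 TPM. The LT embryoid bodies stood above LT-1dMeioLC for Dnmt3b (mean 166 TPM, SD 3.59, n = 2), Dnmt3a (23.1 TPM, SD 1.47) and Uhrf1 (49.8 TPM, SD 0.646). They stood below it for Tet2 (mean 2.06 TPM against 5.46 TPM) and Tet3 (1.26 TPM against 2.06 TPM). Change within the LT line was not tested. Members of the PRC1.6 complex, which represses germ cell and meiotic genes in somatic and pluripotent cells, divided into 7 higher and 6 lower of 15, and its median log2 difference of 0.17 became -0.16 under quantile normalization. E2f6, its DNA-binding subunit, rose from 5.39 and 4.47 TPM to a mean of 11.9 TPM (SD 0.751, n = 2), Wdr5 fell from 36.6 and 36.6 TPM to 17.7 and 16.7 TPM, and Mga, which pairs with Max at E-boxes, had 7.78 and 7.41 TPM against 6.47 and 6.82 TPM and did not pass.

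Imprinted genes, whose parental marks PGCs erase, were higher for 19 of 22 and lower for 3, with a median log2 difference of 1.72. The linked pair H19 and Igf2 changed most: H19 had 518 and 513 TPM against 39.9 and 41.5 TPM (log2 difference 3.63, SE 0.06, adjusted p = 4.5e-11) and Igf2 had 118 and 125 TPM against 8.59 and 8.57 TPM (log2 difference 3.67, SE 0.09). Mest rose from 24.2 and 25.6 TPM to 175 and 176 TPM. PGC-1dMeioLC had 647 and 602 TPM of H19 and 149 and 146 TPM of Igf2. Snrpn, Phlda2 and Nespas fell, Snrpn from 140 and 135 TPM to 54.7 and 56.9 TPM. Many of these genes are abundant in fetal mesenchyme, whose marker sums moved with them. That part was not tested, and TPM per gene does not tell the alleles apart.

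**Figure D4:**
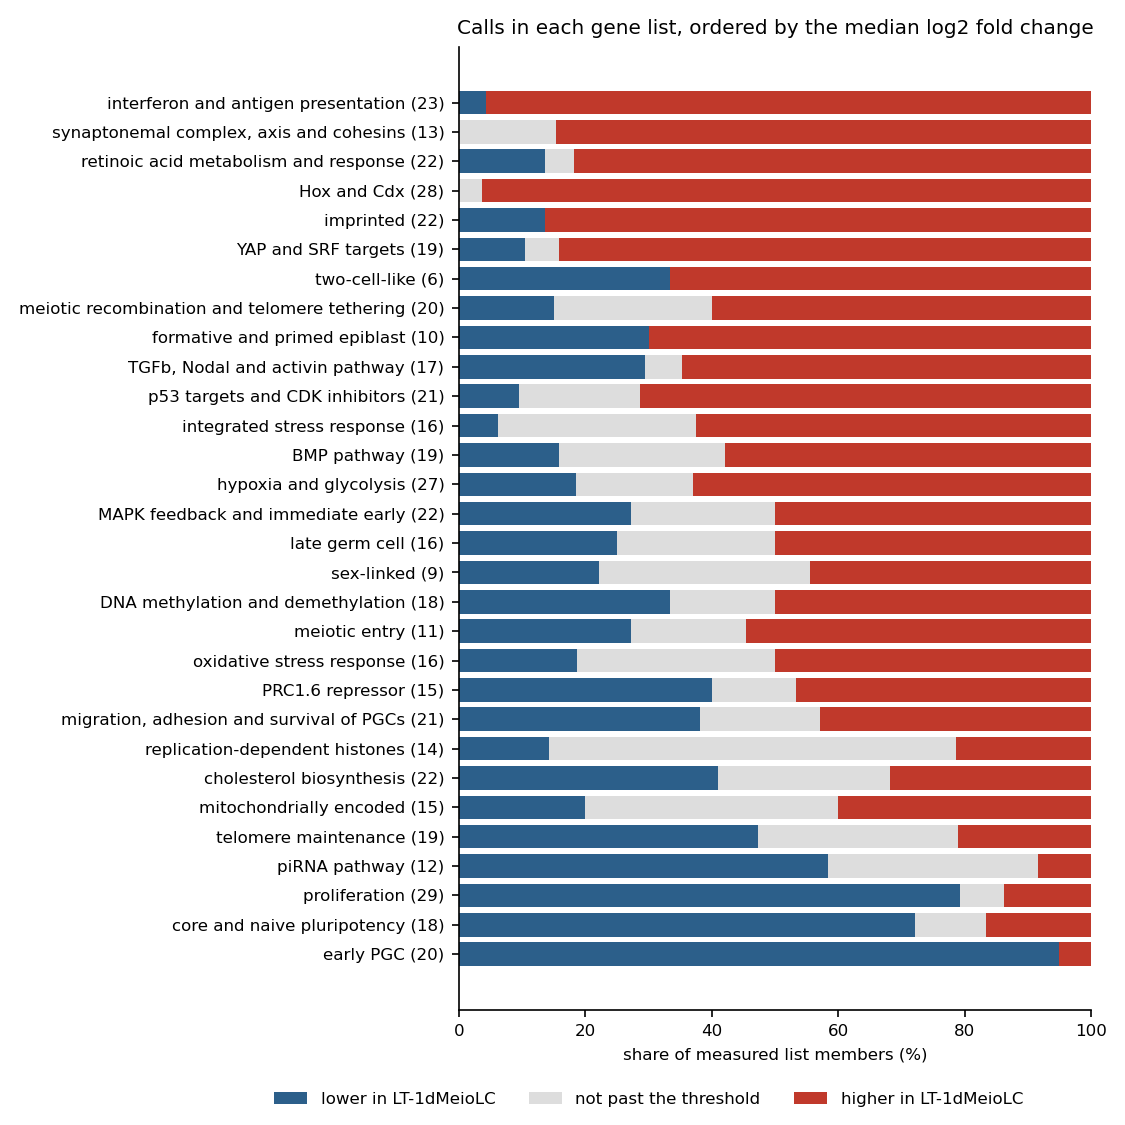
Share of the measured members of 30 gene lists called higher (red), lower (blue) or not past the threshold (grey) in LT-1dMeioLC against E10.5PGC, with the number of measured members in parentheses and the lists ordered by their median log2 fold change. Interferon, synaptonemal, retinoic acid and Hox lists are at the top and piRNA, proliferation, pluripotency and early PGC lists at the bottom.

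Interferon-induced and antigen presentation genes had the highest median of the 30 pathway lists, 4.2 on the log2 scale, with 22 of 23 higher. Among the marker lists that of fibroblast and stroma stood higher, at 4.44. B2m, the light chain of MHC class I, had 2910 and 2830 TPM against 16.6 and 19.2 TPM in E10.5PGC (log2 difference 7.25, SE 0.06, adjusted p = 3.9e-13). The class I heavy chains H2-D1 and H2-K1 had 403 and 412 TPM against 2.48 and 1.68 TPM and 328 and 344 TPM against 2.71 and 1.90 TPM. Ifit1, Ifit3, Isg15 and Tap1 were listed at 0 in both E10.5PGC libraries, and Ifit1, which binds foreign RNA, had 52.5 and 51.5 TPM in LT-1dMeioLC. The gene that fell was Irf1, from 16.8 and 15.3 TPM to 5.55 and 4.34 TPM.

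The interferon genes also differed between LT-1dMeioLC and PGC-1dMeioLC. Of the 23 interferon genes 22 were called higher in LT-1dMeioLC against PGC-1dMeioLC and none lower, beside 25.2% of all genes called in that comparison, with a median log2 difference of 2.46. B2m stood at 472 and 456 TPM in PGC-1dMeioLC (log2 difference 2.63, SE 0.06, adjusted p = 4.9e-09), H2-D1 at 41.1 and 44.2 TPM and Ifit1 at 4.67 and 5.09 TPM. The macrophage list ran in the other order, with 744 and 732 TPM in PGC-1dMeioLC against 332 and 324 TPM in LT-1dMeioLC. The LT embryoid bodies had a mean of 226 TPM of B2m (SD 6.92, n = 2) and an interferon list sum of 777 and 791 TPM, above the 81.0 and 76.6 TPM of E10.5PGC. The comparisons with E10.5PGC and with PGC-1dMeioLC share the LT-1dMeioLC libraries, so they are not independent.

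**Figure D5:**
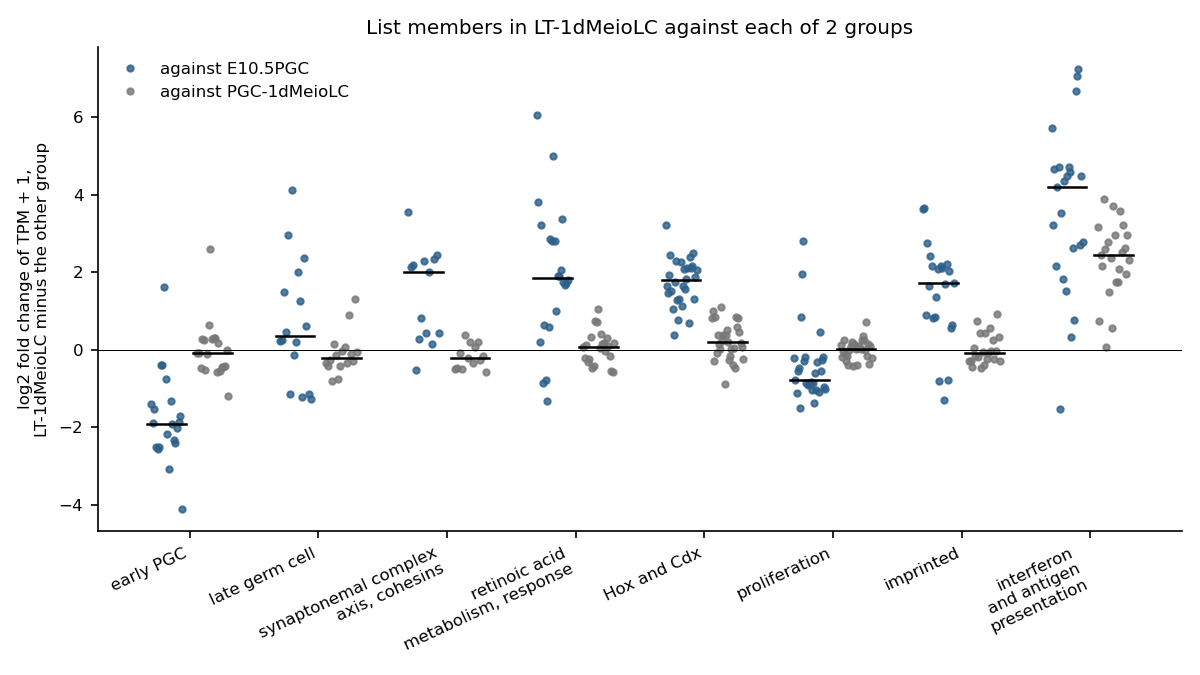
Log2 fold change of TPM + 1 for the measured members of 8 gene lists, LT-1dMeioLC minus E10.5PGC in blue and LT-1dMeioLC minus PGC-1dMeioLC in grey; bars are medians and points are genes. Both comparisons share the LT-1dMeioLC libraries. Grey medians lie between -0.21 and 0.20 for 7 of the lists and at 2.46 for the interferon list.

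The 12 genes with the highest log2 differences, among those that reached 10 TPM on the higher side, were Stra8, Spink8, B2m, Ifi27l2a, H2-D1, H2-K1, Plac8, Ccl5, Mir5107, Rtp4, Cyp26a1 and Lgals3bp. Ifi27l2a, Rtp4 and Lgals3bp are known as interferon-induced. Spink8, of the Kazal-type serine protease inhibitor family, had 245 and 247 TPM against 0.162 and 0 TPM (log2 difference 7.84, SE 0.15) and 115 and 113 TPM in PGC-1dMeioLC. Plac8, a small cysteine-rich protein, had 526 and 526 TPM against 5.52 and 5.18 TPM. Ccl5, a chemokine, had 79.7 and 80.4 TPM and was listed at 0 in both E10.5PGC libraries.

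The 12 lowest were 6 protein-coding genes, Lefty2, Hbb-bh1, Utf1, Scgn, Ppbp and Foxr1, and 6 small RNA genes. Lefty2, an inhibitor of Nodal, fell from 51.7 and 47.4 TPM to 1.53 and 1.37 TPM (log2 difference -4.37, SE 0.13, adjusted p = 1.6e-09) and was listed at 0 in PGC-1dMeioLC. Foxr1, a forkhead gene, fell from 64.0 and 61.3 TPM to 5.52 and 4.55 TPM, and the calcium-binding protein gene Scgn from 12 and 10.3 TPM to 0.0308 and 0 TPM. The small RNA genes were Mir219a-2, Mir291b, Mir7578, Mir106a, Snord49a and Snord95. The call of Snord49a was lost without LT-1dMeioLC replicate 2 (adjusted p = 0.053) and that of Mir7578 with a pseudocount of 0.1 (adjusted p = 0.054). Mir219a-2 (mm10 chromosome 2, 29845631 to 29845727) was listed at 0 in LT-1dMeioLC and PGC-1dMeioLC, against 26.1 and 21.2 TPM in E10.5PGC. Mir291b had 11.8 and 18.3 TPM and was listed at 0 in both culture groups. Mir106a varied widely, with 10.2 and 31.7 TPM in E10.5PGC and 0.766 and 0 TPM in LT-1dMeioLC, and its call was lost without either LT-1dMeioLC library (adjusted p = 0.06 and 0.12) or E10.5PGC replicate 2 (0.15). Such values are levels of miRNA genes in total RNA libraries and no measure of mature miRNAs, and short genes turn few reads into high TPM. As a class, miRNA genes held 11.8% and 12% of TPM in LT-1dMeioLC and 14.1% and 13.7% in E10.5PGC.

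The mature sequences of 3 of these miRNA genes (RefSeq, GRCm38.p6) are shown with the seed, bases 2 to 8, in capitals, because the seeds of miR-291b-3p, of a family abundant in pluripotent cells, and miR-106a-5p both hold AAGUGC, whereas miR-219a-5p carries another seed.
mmu-miR-219a-5p: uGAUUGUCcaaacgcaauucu
mmu-miR-291b-3p: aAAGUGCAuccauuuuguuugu
mmu-miR-106a-5p: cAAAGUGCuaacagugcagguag

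Proliferation genes were lower for 23 of 29 and higher for 4, with a median log2 difference of -0.77. The replication licensing genes Mcm2 to Mcm7 all fell, Mcm7 from 93.5 and 97.3 TPM to 35.6 and 36.3 TPM (log2 difference -1.38, SE 0.06). Ccne1, the G1/S cyclin, fell from 40.4 and 38.8 TPM to 13.6 and 12.8 TPM, and Ccnb1, the mitotic cyclin, from 220 and 218 TPM to 98.3 and 102 TPM. The 4 genes called higher were Ccnd2, Ccnd1, Ccne2 and Birc5. The D cyclins led them, Ccnd2 with 50.0 and 49.9 TPM against 6.44 and 6.22 TPM (log2 difference 2.80, SE 0.06) and Ccnd1 with 23.1 and 20.8 TPM against 4.89 and 4.90 TPM. Mki67 had 16.8 and 17 TPM against 18.8 and 20.5 TPM and did not pass (log2 difference -0.21, adjusted p = 0.15), except under quantile normalization (adjusted p = 0.017).

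Among p53 targets and CDK inhibitors 15 of 21 were higher and 2 lower, with a median log2 difference of 0.92. Cdkn1b (p27) rose from 5.74 and 5.25 TPM to 28.0 and 30.0 TPM (log2 difference 2.21, SE 0.07), Cdkn1c (p57, imprinted) from 22.3 and 19.3 TPM to 92.8 and 89.5 TPM and Cdkn1a (p21) from 15.8 and 17.3 TPM to 58.6 and 53.9 TPM (log2 difference 1.70, SE 0.06, adjusted p = 6.9e-09). The 2 genes that fell were Trp53 itself, from 71.1 and 66.6 TPM to 34.0 and 33.6 TPM, and Bax. Mdm2, the p53 target and ligase, had 17.1 and 16.5 TPM against 18.2 and 17.7 TPM and did not pass.

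Telomere genes tended lower, 9 of 19 measured, with 4 higher and a median log2 difference of -0.31. The H/ACA proteins of telomerase fell, Nhp2 from 1040 and 1050 TPM to 409 and 429 TPM (log2 difference -1.32, SE 0.04), Gar1 from 29.7 and 30.6 TPM to 13 and 14.4 TPM and Dkc1 from 81.6 and 81.1 TPM to 43.3 and 44.6 TPM. These proteins also serve ribosomal RNA modification. Terf1 of shelterin fell from 30.2 and 31.1 TPM to 16 and 15.2 TPM, whereas Terf2ip (Rap1) rose from 4.22 and 3.53 TPM to a mean of 11.4 TPM (SD 1.34, n = 2) (log2 difference 1.35, SE 0.12). Terc, the RNA template, was low and uneven, at 2.35 and 5.39 TPM against 0.945 and 0.974 TPM (log2 difference 1.24, SE 0.40, adjusted p = 0.023), and the call was lost without LT-1dMeioLC replicate 2 (0.2) or either E10.5PGC library (0.082 and 0.078) and under quantile normalization (0.23). Tert had 0.982 and 1.36 TPM against 0.349 and 0.467 TPM and lay below the minimum.

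Within each signalling list some genes were higher and others lower. In the Nodal branch the ligand Nodal fell from 7.57 and 7.57 TPM to 3.16 and 2.80 TPM and its inhibitor Lefty1 from 20.5 and 21.2 TPM to 3.14 and 5.37 TPM, while Smad3 rose from 3.82 and 3.27 TPM to 17.6 and 19.8 TPM (log2 difference 2.12, SE 0.12) and Fst, the activin binder made by ovarian somatic cells, from 0.790 and 0.488 TPM to 17 and 16.2 TPM. Fst also had a mean of 13.9 TPM (SD 1.29, n = 2) in the LT embryoid bodies, which had met no gonadal cells. The source of Fst in LT-1dMeioLC was not tested. Of the 17 measured members of the Nodal list 11 were higher and 5 lower. For BMP, 11 of 19 were higher and 3 lower. Bmp2 rose from 0.375 and 0.232 TPM to 5.53 and 5.41 TPM, the receptor Bmpr2 from 0.770 and 0.722 TPM to 5.29 and 5.78 TPM and Smad1, which carries the signal to the nucleus, from 2.38 and 2.57 TPM to 7.40 and 7.75 TPM. The ligands Bmp4 and Bmp8b fell. Of the target genes Id2 rose from 33.7 and 31.4 TPM to 105 and 96.9 TPM, Msx2 fell from 10.2 and 12.4 TPM to 6.09 and 5.66 TPM, and Id3 had 193 and 198 TPM against 220 and 217 TPM and did not pass. Under quantile normalization the BMP list gave 8 higher and 6 lower.

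Of the targets of FGF and MAPK signalling 11 of 22 were higher and 6 lower, shares close to those over all genes compared. The list as a whole was thus not set apart, and single genes are given for their values. The ETS factor genes Etv4 and Etv5 fell, Etv4 from 17.1 and 17.1 TPM to 0.995 and 1.36 TPM (log2 difference -3.06, SE 0.18) and Etv5 from 74.3 and 72.2 TPM to 21.2 and 19.8 TPM, as did the phosphatase Dusp4 from a mean of 12.2 TPM (SD 0.436, n = 2) to 0.927 and 0.951 TPM. Of the immediate early genes Egr1 rose from 5.64 and 6.52 TPM to 50.5 and 47.6 TPM (log2 difference 2.82, SE 0.14) and Fos from 24 and 26.9 TPM to 60.8 and 62.3 TPM, whereas Jund fell and Junb and Atf3 did not pass. Targets of YAP and SRF were higher for 16 of 19. Acta2, the smooth muscle actin, had 112 and 109 TPM against 3.67 and 4.63 TPM (log2 difference 4.44), Axl, a receptor kinase, 56.2 and 54.3 TPM against 3.02 and 3.44 TPM and Tagln 32.4 and 36.5 TPM against 1.94 and 2.49 TPM. These 3 are also genes of stromal cells, whose sums moved with them.

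Genes of the formative and primed epiblast were higher for 7 of 10 and lower for 3, with a median log2 difference of 1.00. Fgf5, Lef1 and Nodal fell, and among those that rose were Pou3f1, whose call was lost under quantile normalization (adjusted p = 0.91), Dnmt3a and Dnmt3b. Of 6 genes of the 2-cell-like state, Dppa2 and Dppa4 fell, and the 4 Zscan4 genes, near copies of each other whose reads could be shared, were higher. Zscan4d and Zscan4f were listed at 0 in E10.5PGC.

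Among genes of PGC migration, adhesion and survival 9 were higher and 8 lower of 21, with a median log2 difference of 0.14 that became -0.38 under quantile normalization. Kitl, the ligand of Kit that somatic cells make, rose from 2.61 and 2.61 TPM to 21.7 and 21.2 TPM (log2 difference 2.63, SE 0.09), opposite to its receptor. Itga6, a laminin receptor, rose from 2.08 and 2.15 TPM to 22 and 24.9 TPM and Gja1, the gap junction protein connexin 43, from 3.10 and 2.67 TPM to 26.6 and 24.4 TPM. The death effector Bax fell from 188 and 194 TPM to 68.3 and 69.0 TPM.

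Hypoxia and glycolysis genes were higher for 17 of 27 and lower for 5. Vegfa rose from 2.92 and 3.03 TPM to 21.5 and 24.3 TPM (log2 difference 2.58, SE 0.10), Ldha from 54.3 and 50.7 TPM to 248 and 247 TPM and P4ha1 from 9.20 and 8.41 TPM to 28.8 and 29.0 TPM, while Pkm fell from 219 and 214 TPM to 114 and 121 TPM. The integrated stress response had 10 of 16 higher and 1 lower, led by Cebpb, from 0.709 and 0.411 TPM to 5.00 and 4.33 TPM. In the oxidative stress list 8 of 16 were higher and 3 lower, shares close to those over all genes compared. Mt1, a metallothionein, rose from 111 and 114 TPM to 574 and 575 TPM and Gpx1 fell from 1170 and 1170 TPM to 350 and 353 TPM. Cholesterol synthesis genes were divided, 7 higher and 9 lower of 22, with Mvd falling from 55.6 and 56.5 TPM to 11.2 and 14.9 TPM and Sc5d rising from 12.8 and 14 TPM to 45.7 and 42.1 TPM. Both mitochondrial rRNAs rose, mt-Rnr1 from 1310 and 1370 TPM to 7220 and 7020 TPM, whereas most mitochondrial mRNAs moved by less than 2-fold. Of 14 histone genes tied to replication 9 did not pass, 3 were higher and 2 lower. The reads of rRNA depend on how rRNA was removed, which the sources used here do not give.

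Chromosome X held a larger share of higher genes than any autosome. Of its 506 measured protein-coding genes 63.2% were higher and 17% lower, with a median log2 difference of 0.73, against 40.3% to 57.3% higher and medians of 0.12 to 0.56 on single autosomes (48.2% higher, 24.1% lower and a median of 0.31 over all 12156 autosomal genes). Quantile normalization lowered both, to 47.6% higher with a median of 0.31 for chromosome X and 33% with -0.02 for the autosomes. Against PGC-1dMeioLC the medians were 0.03 and 0.04. Xist, the RNA that silences an X chromosome, rose from 0.0818 and 0.172 TPM to 4.2 and 3.80 TPM (log2 difference 2.15, SE 0.09, adjusted p = 2.4e-08), and its antisense Tsix from 0.110 and 0.373 TPM to 5.38 and 3.54 TPM; how strand was used in counting is not given, so their reads cannot be told apart. The Y-linked gene Eif2s3y was measured in both groups, at 15.7 and 16 TPM against 29.2 and 27.9 TPM. Rhox5, an X-linked homeobox gene of PGCs, fell from 2630 and 2460 TPM to 666 and 677 TPM, counter to its chromosome.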

How the data were processed

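The authors deposited a table of TPM values per gene symbol for the whole series, so the unit is TPM and the depth of each library is unknown. Per the submitters' processing notes, the mm10 build and the tools RSEM, HISAT2, Bowtie2, DESeq2 and R 3.4.2 were used, with their roles not given in the sources used here. No p-value or fold of the authors was used. Of the table's columns 16 were used, and 12 were left out because their names did not match the labels of 1 sample. Values were tested as log2(TPM + 1) in limma 3.58.1 (R 4.3.3), with a mean-variance trend, 1 model over the 16 libraries of 8 groups of 2, and Benjamini-Hochberg adjustment over 21935 genes that reached 1 TPM in 2 or more of these libraries. Means ± SD and figures were made with Python 3.11.15 and pandas 2.3.3. The procedure was tested on simulated data, with all 21935 genes drawn for LT-1dMeioLC against E10.5PGC. The changed genes had 5 TPM or more in E10.5PGC. There it called 91% of 100 simulated 2-fold changes, 99% of 100 simulated 4-fold changes and 11 unchanged genes. Coordinates and biotypes came from GENCODE M21 by symbol. The members, gene lists and markers were chosen with earlier results of these data known. The named genes were 16 anchor genes, in each list at most 4 of the most changed members, and the 12 highest and 12 lowest genes with 10 TPM or more in the higher group, leaving out provisional symbols. Other genes named were chosen after their values were seen. Alternatives were other pseudocounts, filters and scalings, fits without the trend or on the 4 libraries alone, a replicate block, and leaving out each library.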

Additional observations from a re-analysis of the deposited data

How the results depend on the processing

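Over the settings tried, the counts moved as follows. A pseudocount of 5 gave 1563 genes at least 2-fold higher and 634 at least 2-fold lower. Counting only genes with at least 5 TPM in 2 or more of the 4 libraries left 7339 called. Of these 4301 were higher and 2316 at least 2-fold higher. The genes tested and their adjusted p-values were unchanged in that setting, so only the set counted was smaller. Quantile normalization gave 2426 at least 2-fold higher. Leaving out 1 library gave 6559 to 6668 genes higher and 3098 to 3243 lower. Among 607 list or named genes, quantile normalization turned the sign of 8 that were called against E10.5PGC. The log2 differences became -0.075 for Itga2b, -0.088 for Nes, -0.111 for Cdh5 and -0.158 for Ythdc2. Those of Acvr1, Ctgf, Rybp and Ddx3y became -0.076, -0.260 (adjusted p = 0.047), -0.072 and -0.112. Against PGC-1dMeioLC the sign of mt-Rnr2 turned (0.120). The cause was not tested. Of genes named in the report that did not pass, Gata2, Klf4, Tfcp2l1, Mdm2, Sun1, Piwil2 and Mki67 passed under quantile normalization (adjusted p = 0.0037 to 0.034), and the call of Max was lost there (adjusted p = 0.13). Ythdc2 (adjusted p = 0.046) was lost without either LT-1dMeioLC library (0.2 and 0.07) or E10.5PGC replicate 2 (0.38), and Hoxa10 passed without E10.5PGC replicate 2 (0.032).

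Deviations of same-numbered libraries had a correlation of 0.031 between LT-1dMeioLC and E10.5PGC, so the replicate numbers gave no sign of pairing there. That value cannot show that same-numbered libraries were prepared apart, and other pairs of groups were not checked. With the replicate block 7334 genes were higher and 3678 lower, and of 607 list or named genes 602 kept their call against E10.5PGC. Depth is unknown, so counting error at low TPM could not be set beside the spread of 2 libraries.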
